A study of Mus musculus with 12 samples.

Results

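The genes described here were 10 nuclear-encoded regulators of mitochondrial biogenesis and of mitochondrial transcription, found by gene symbol among the 57490 genes of the deposited count table. They were the coactivators Ppargc1a and Ppargc1b, the nuclear transcription factor Nrf1, the mitochondrial transcription genes Tfam, Polrmt and Tfb2m, the replication genes Twnk and Polg for mitochondrial DNA (mtDNA), and the mRNA stability genes Lrpprc and Slirp. Their levels were set beside the share of counts on the mitochondrial chromosome (MT), which had 37 genes in the table. The study sequenced polyA RNA from the kidney of 12 male mice, 4 in each of 3 groups, to follow diabetic nephropathy and its treatment with a herbal decoction. The Ctrl mice were db/+ heterozygotes (db/m) and were given purified water by gavage. The Model mice were db/db mice of the strain BKS.Cg-Dock7m +/+ Leprdb/JNju, which are homozygous for a loss of leptin receptor function and were also given purified water. The YHY mice were db/db mice of that strain given a water extract of Yiqi Huoxue Yangyin Decoction at 6.24 g/mL by gavage every day for 4 weeks, in a volume of 50 µL for each 10 g a mouse weighed. All mice came at 8 weeks of age and were 13 weeks old when sampled. The sample labels give the tissue as kidney, and the text on the design gives renal cortex. Each library came from a single mouse and held 24415658 to 33276634 counts.

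The coactivators encoded by Ppargc1a and Ppargc1b (PGC-1alpha and PGC-1beta) dock on nuclear receptors and on the transcription factor NRF1 and raise the expression of nuclear genes for mitochondria. Among those genes is Tfam, whose protein packages mtDNA and, together with the RNA polymerase POLRMT and the factor TFB2M, starts transcription from the mtDNA promoters. The helicase TWNK and the polymerase POLG copy mtDNA, and LRPPRC with its partner SLIRP binds and stabilises mitochondrial mRNAs. The tubule cells of the kidney cortex are rich in mitochondria, which supply the energy for reabsorption.

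RefSeq promoter windows of 300 bases ran from 250 before to 50 after the start site. They were taken by symbol for 9 of the 10 genes, in 11 windows of the build GRCm38.p6. Ppargc1b was left out, and its promoter was not examined. The windows of the 3 genes that start mitochondrial transcription are shown because Tfam and Tfb2m lay lower and Polrmt higher in db/db mice. The window of Polg, which copies mtDNA, is shown for comparison. All 4 lie on the minus strand and are written 5′ to 3′ along the gene, and capitals mark matches to any of 6 motifs. The positions are chr10:71237995-71238294 for Tfam, chr1:179546227-179546526 for Tfb2m, chr10:79746532-79746831 for Polrmt and chr7:79466224-79466523 for Polg.
Tfam: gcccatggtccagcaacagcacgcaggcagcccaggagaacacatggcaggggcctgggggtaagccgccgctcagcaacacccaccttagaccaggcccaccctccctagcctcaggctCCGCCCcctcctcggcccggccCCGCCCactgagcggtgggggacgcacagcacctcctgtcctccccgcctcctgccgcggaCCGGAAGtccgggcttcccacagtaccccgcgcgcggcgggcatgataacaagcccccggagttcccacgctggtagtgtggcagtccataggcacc
Tfb2m: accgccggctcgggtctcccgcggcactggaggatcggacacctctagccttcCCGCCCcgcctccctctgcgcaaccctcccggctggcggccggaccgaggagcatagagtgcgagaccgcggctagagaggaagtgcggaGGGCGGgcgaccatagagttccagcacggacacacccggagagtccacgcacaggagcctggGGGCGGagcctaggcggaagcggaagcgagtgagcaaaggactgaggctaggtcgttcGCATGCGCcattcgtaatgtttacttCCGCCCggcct
Polrmt: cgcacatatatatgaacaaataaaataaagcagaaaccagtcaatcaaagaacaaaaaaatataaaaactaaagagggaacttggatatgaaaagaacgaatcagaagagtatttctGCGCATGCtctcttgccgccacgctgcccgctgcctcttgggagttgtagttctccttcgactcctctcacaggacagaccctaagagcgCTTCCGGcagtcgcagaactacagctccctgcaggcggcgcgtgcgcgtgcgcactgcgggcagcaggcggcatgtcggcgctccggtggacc
Polg: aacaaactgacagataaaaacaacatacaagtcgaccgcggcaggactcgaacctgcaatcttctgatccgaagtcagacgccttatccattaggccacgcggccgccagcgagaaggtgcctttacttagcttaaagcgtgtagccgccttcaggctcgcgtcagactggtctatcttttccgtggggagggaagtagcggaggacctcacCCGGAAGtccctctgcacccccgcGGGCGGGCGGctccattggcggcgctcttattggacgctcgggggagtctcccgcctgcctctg
The motifs were GCGCATGC (NRF1), CCGGAAG (ETS factors such as GABPA), AAGATGGC (YY1), AAGGTCA (oestrogen-related receptors), TGACGTCA (CREB) and GGGCGG (SP factors), each searched on both strands. The NRF1 letters were found in Polrmt, at -133 from the start site, and in Tfb2m, at 13, and in 2.71% of all 32851 promoter windows. The ETS letters were found in 5 of the 9 genes, Tfam at -47, Polrmt at -43, Polg at -38, Twnk and Slirp, and in 8.86% of all windows. The SP letters were found in Tfam, Nrf1, Tfb2m, Twnk, Polg and Lrpprc and in 35.7% of all windows, and in Polg 2 of these matches overlapped each other. The oestrogen-related receptor letters were found in Twnk (4.72% of all windows), the YY1 letters in Slirp (2.75%), and the CREB letters in no member window (1.79%). The window of Ppargc1a held none of the 6 motifs. By base composition, G and C made up 70.3% of the Tfam window, 67.3% of Tfb2m, 59.3% of Polg, 52.0% of Polrmt and 48.7% of Ppargc1a, beside a median of 52.7% over all windows. A match is a description of letters and was not tested for binding.

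Of the 10 genes, 9 had enough counts to be tested beside 17431 genes in all, and Slirp did not. A difference was called when the quasi-likelihood test of edgeR gave a P under 0.05 after adjustment over all genes tested. Between Model and Ctrl mice, Ppargc1b and Polrmt were called higher and Tfam and Tfb2m lower. These were 2 of 9 higher and 2 of 9 lower, beside 19.6% of all genes called higher and 18.5% called lower. The mice of the 2 groups did not overlap in 4 of the 9 genes, beside 40.2% of all genes, so the share of members that differed was near the background. The median log2 fold change was 0.08 over the 9 members and 0.04 over all genes. Between YHY and Model mice, edgeR called 0 members higher and 0 lower, beside 5.63% and 7.62% of all genes. At an unadjusted P under 0.05 the count was 2 of 9 (Nrf1 and Tfam), beside 4989 of all 17431 genes. DESeq2 called 1 member, Nrf1, and its count over all genes is not given here. Only Nrf1 had mice that did not overlap between YHY and Model, 1 of 9 beside 16.1% of all genes, and the median was -0.11 over the members and 0.02 over all genes. Between YHY and Ctrl mice, Ppargc1b, Nrf1, Polrmt and Polg were called higher and Tfam, Tfb2m and Lrpprc lower. These were 4 and 3 of 9, beside 26.1% and 24.2% of all genes, and 6 of 9 did not overlap, beside 44.6%. The median there was 0.25 over the members and 0.10 over all genes. The comparisons share mice, Ctrl in 2 of them, Model in 2 and YHY in 2, so they are not independent of each other.

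**Figure D1:**
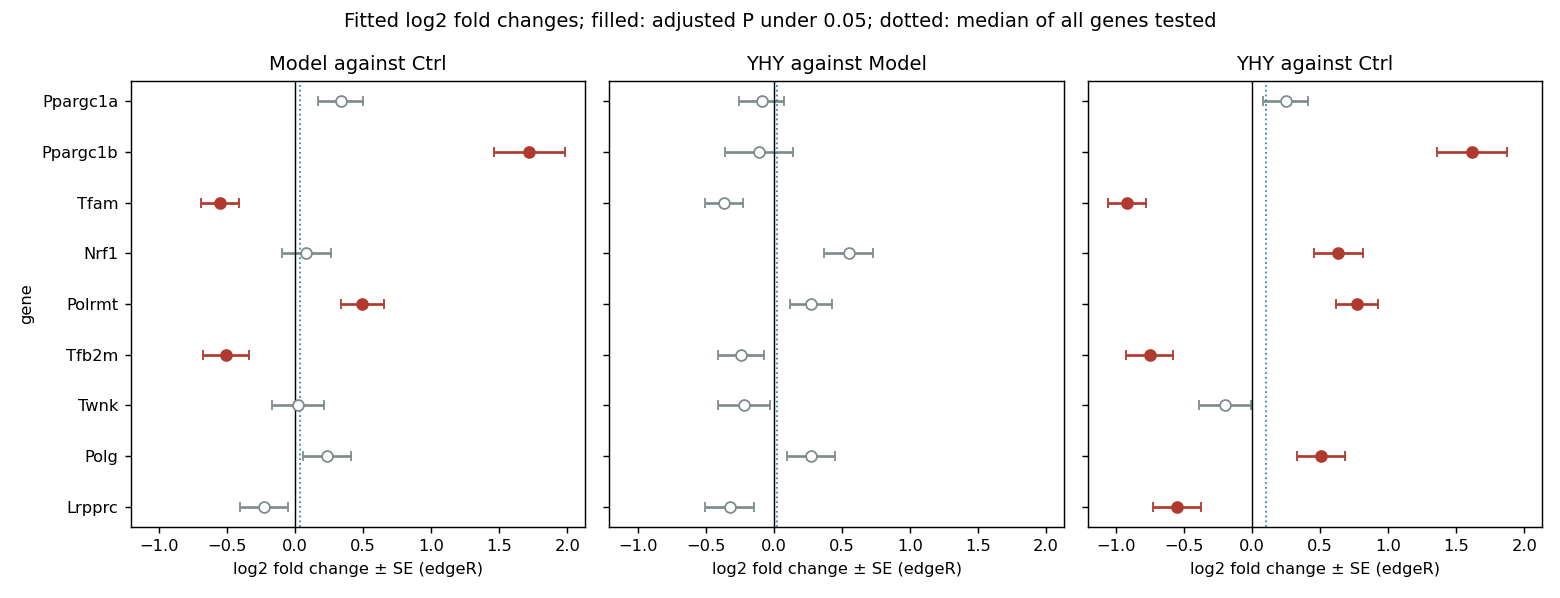
Fitted log2 fold change of each tested member (x axis, point) with its standard error (bar) in the 3 comparisons, by edgeR. Filled points passed an adjusted P of 0.05, and the dotted line is the median of all genes tested. Ppargc1b stands farthest to the right against Ctrl (1.72 in Model and 1.61 in YHY), Tfam and Tfb2m stand to the left, and no point is filled for YHY against Model.

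How libraries were scaled mattered for direction, and MT genes took a larger share of the counts in db/db mice. With library size alone in place of the TMM scaling used here, the median log2 fold change of all genes moved from 0.04 to -0.39 for Model against Ctrl and from 0.10 to -0.33 for YHY against Ctrl. The share of called genes that were higher moved from 51.5% to 21.4% and from 51.9% to 28.4%. With that scaling Ppargc1a (-0.09), Nrf1 (-0.35), Twnk (-0.42) and Polg (-0.23) turned to the lower side for Model against Ctrl, and Ppargc1a (-0.16) did so for YHY against Ctrl. Ppargc1b stayed higher and Tfam, Tfb2m and Lrpprc stayed lower in both comparisons. Counts per nuclear total, with the MT genes left out and no TMM factor (nuclear CPM), moved the members the other way, with no test on that scale. Mean nuclear CPM for Ctrl, Model and YHY was 61.8, 97.5 and 101 for Ppargc1a, 15.6, 20.9 and 33.7 for Nrf1 and 36.99, 65.9 and 87.4 for Polrmt. It was 25.6, 32.9 and 30.7 for Twnk and 23.0, 34.0 and 44.8 for Polg. Against Ctrl, Twnk in YHY and Lrpprc in Model thus turned to the higher side there, while the means of Tfam and Tfb2m (40.4, 35.5 and 32.9) stayed lower in both db/db groups. Values below are TMM-scaled counts-per-million values (CPM) unless another scale is named.

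Ppargc1a (ENSMUSG00000029167, chromosome 5, 51611592 to 51725068 on GRCm39, minus strand) encodes the main inducible coactivator of mitochondrial biogenesis. Its level was 31.3, 41.3, 40.7 and 48.6 CPM in Ctrl 1 to 4. It was 55.8, 53.0, 41.8 and 53.6 CPM in Model 1 to 4 and 49.9, 35.8, 53.9 and 52.3 CPM in YHY 1 to 4. The groups overlapped, since Ctrl 4 lay above Model 3 and YHY 2 was the lowest db/db mouse. The mean was 40.5 ± 7.10 CPM for Ctrl, 51.0 ± 6.26 for Model and 48.0 ± 8.27 for YHY (SD, n = 4 each). The log2 fold change was 0.33 ± 0.17 (SE) for Model against Ctrl and did not pass the test (edgeR adjusted P 0.124), except with upper-quartile scaling, where it was 0.44 (adjusted P 0.0499, range over the alternatives 0.0499 to 0.783). It was -0.09 ± 0.17 for YHY against Model (adjusted P 0.782) and 0.25 ± 0.17 for YHY against Ctrl (adjusted P 0.232). Leaving out single mice, the values against Ctrl ran from 0.18 to 0.42 for Model and from 0.09 to 0.36 for YHY, both lowest without Ctrl 1.

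Ppargc1b (ENSMUSG00000033871, on chromosome 18) encodes the related coactivator PGC-1beta. It had far fewer counts, 89 to 265 per mouse. Its level was 2.23, 2.90, 2.82 and 2.03 CPM in Ctrl 1 to 4. It was 5.73, 9.43, 9.09 and 8.68 CPM in Model 1 to 4 and 4.77, 8.79, 9.86 and 7.13 CPM in YHY 1 to 4. All 8 db/db mice lay above all 4 Ctrl mice, and the lowest db/db mice were YHY 1 and Model 1. Ppargc1b was 3.30-fold higher in Model than in Ctrl (log2 1.72 ± 0.26, edgeR adjusted P 0.000128) and 3.06-fold higher in YHY than in Ctrl (log2 1.61 ± 0.26, adjusted P 9.93e-05). Between YHY and Model the log2 fold change was -0.11 ± 0.25 (adjusted P 0.83). Both calls against Ctrl held in each alternative setting and without each mouse. In bulk tissue, fewer cells of a type and less RNA per cell cannot be told apart, here or in the results that follow.

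Within a library, the ratio of 2 genes does not depend on how libraries are scaled. The counts of Ppargc1a were 13.9, 14.1, 14.4 and 23.9 times those of Ppargc1b in Ctrl 1 to 4. The ratios were 9.71, 5.60, 4.59 and 6.16 in Model 1 to 4 and 10.4, 4.07, 5.46 and 7.31 in YHY 1 to 4. Every Ctrl mouse had a higher ratio than every db/db mouse, and Ctrl 4 stood apart above the other 3. The mean log2 ratio was 4.01 ± 0.38 for Ctrl, 2.65 ± 0.46 for Model and 2.68 ± 0.58 for YHY (SD, n = 4 each). The difference from Ctrl was -1.36 in Model and -1.33 in YHY, each with an exact permutation P of 0.0286 (two-sided), the smallest that 4 against 4 mice can give, and 0.0571 after adjustment over 12 ratio tests. Neither therefore passed 0.05 after adjustment. The difference between YHY and Model was 0.03 (exact permutation P 0.943, adjusted 0.943).

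Nrf1 (ENSMUSG00000058440, chromosome 6, 30047987 to 30153457, plus strand) encodes the nuclear factor that binds the promoters of many mitochondrial genes. Its level was 9.70, 10.2, 12.0 and 9.24 CPM in Ctrl 1 to 4. It was 10.2, 12.6, 8.54 and 12.1 CPM in Model 1 to 4 and 19.0, 18.1, 13.6 and 13.1 CPM in YHY 1 to 4. Ctrl and Model mice were mixed, and all 4 YHY mice lay above the other 8, with YHY 1 and YHY 2 highest. As nuclear CPM, YHY 4 (24.84) lay just below Model 4 (24.94), so YHY and Model overlapped on that scale. Nrf1 was 1.55-fold higher in YHY than in Ctrl (log2 0.63 ± 0.18, edgeR adjusted P 0.00787). That call ended with library size alone (log2 0.20) and with the trend on gene length removed (log2 0.40). Between YHY and Model its log2 fold change was 0.55 ± 0.18 (P 0.00744, edgeR adjusted P 0.0537), just outside the threshold. It passed with DESeq2 (0.56), with upper-quartile scaling (0.57), without the MT genes (0.57), with a minimum of 10 counts in every mouse (0.57) and without YHY 4 (0.63). For Model against Ctrl it was 0.08 ± 0.18 (adjusted P 0.755), and -0.02 without Ctrl 4.

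**Figure D2:**
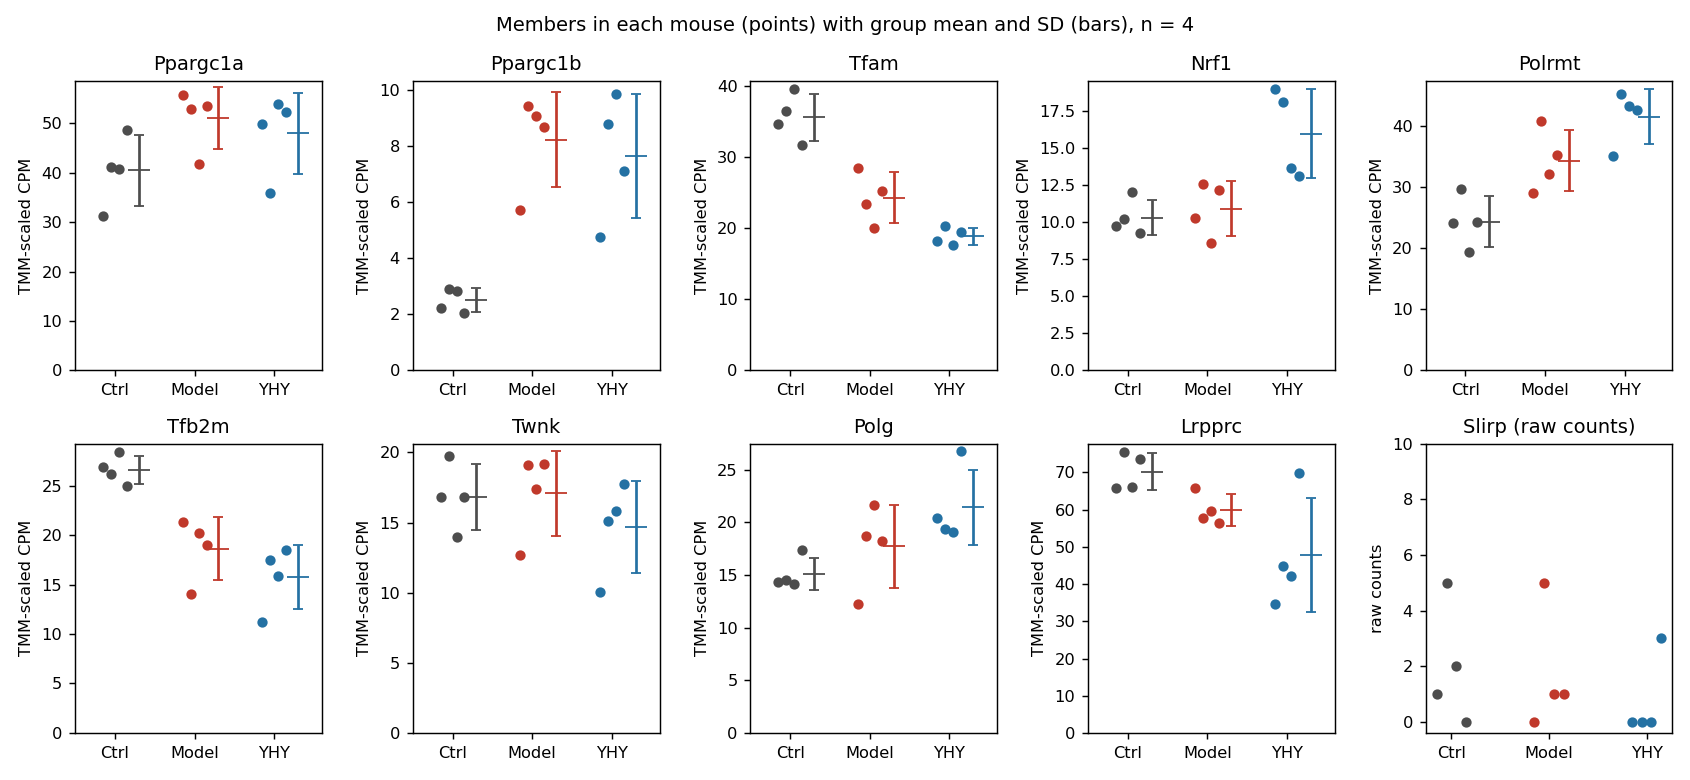
Level of each gene in each mouse (points), as TMM-scaled CPM, with the group mean and SD (bars, n = 4); Slirp is shown as raw counts. The 8 db/db mice lie above all Ctrl mice for Ppargc1b and below all Ctrl mice for Tfam and Tfb2m, and the 4 YHY mice lie highest for Nrf1.

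Tfam (ENSMUSG00000003923, chromosome 10, 71061294 to 71074110, minus strand) encodes the protein that packages mtDNA and takes part in starting its transcription. Its level was 34.7, 36.5, 39.6 and 31.7 CPM in Ctrl 1 to 4. It was 28.5, 23.4, 20.0 and 25.3 CPM in Model 1 to 4 and 18.2, 20.3, 17.6 and 19.4 CPM in YHY 1 to 4. All 8 db/db mice lay below all 4 Ctrl mice, and the YHY mice lay at the low end, with only YHY 2 just above Model 3. The mean was 35.6 ± 3.31 CPM for Ctrl, 24.3 ± 3.56 for Model and 18.9 ± 1.21 for YHY (SD, n = 4 each). Tfam was 1.47-fold lower in Model than in Ctrl (log2 -0.55 ± 0.14, edgeR adjusted P 0.00511) and 1.89-fold lower in YHY than in Ctrl (log2 -0.92 ± 0.14, adjusted P 5.77e-05). Against Model the log2 fold change in YHY was -0.37 ± 0.14 (P 0.018, edgeR adjusted P 0.0932) and did not pass. Both calls against Ctrl held in each alternative setting and without each mouse. As nuclear CPM, for which the MT genes are left out of the library total, the mean was 54.1 ± 3.82 for Ctrl, 46.3 ± 6.52 for Model and 39.7 ± 2.01 for YHY. On that scale Ctrl and Model overlapped, with Model 4 (51.9) above Ctrl 2 (51.1), and all YHY mice lay below all Ctrl mice.

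Tfb2m (ENSMUSG00000026492, chromosome 1, 179355620 to 179373832, minus strand) encodes the factor that helps the polymerase melt the promoter. Its level was 26.8, 26.1, 28.4 and 25.0 CPM in Ctrl 1 to 4. It was 21.3, 14.1, 20.2 and 19.0 CPM in Model 1 to 4 and 11.3, 17.5, 15.8 and 18.5 CPM in YHY 1 to 4. All 8 db/db mice lay below all 4 Ctrl mice, with YHY 1 and Model 2 lowest. Tfb2m was 1.43-fold lower in Model (log2 -0.51 ± 0.17, edgeR adjusted P 0.0261) and 1.69-fold lower in YHY (log2 -0.75 ± 0.17, adjusted P 0.00167) than in Ctrl. The call for Model ended without Model 2 (log2 -0.40), without Model 4 (log2 -0.52) and with upper-quartile scaling (log2 -0.41), and the call for YHY held in each alternative. Between YHY and Model the log2 fold change was -0.24 ± 0.17 (adjusted P 0.378), and leaving out single mice it ran from -0.36 to -0.11. As nuclear CPM, Model 1 (37.7), Model 3 (37.9) and Model 4 (39.1) lay above Ctrl 2 (36.6), so Ctrl and Model overlapped there, and all YHY mice lay below all Ctrl mice.

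Polrmt (ENSMUSG00000020329, chromosome 10, 79571957 to 79582415, minus strand) encodes the RNA polymerase of mitochondria. Its level was 24.1, 29.7, 19.4 and 24.3 CPM in Ctrl 1 to 4. It was 29.1, 40.8, 32.2 and 35.2 CPM in Model 1 to 4 and 35.1, 45.3, 43.3 and 42.7 CPM in YHY 1 to 4. Ctrl 2 and Model 1 overlapped, and all YHY mice lay above all Ctrl mice. Polrmt was 1.41-fold higher in Model (log2 0.49 ± 0.16, edgeR adjusted P 0.0199) and 1.71-fold higher in YHY (log2 0.77 ± 0.16, adjusted P 0.000689) than in Ctrl. The call for Model ended without Ctrl 1 (log2 0.44), Ctrl 3 (0.35), Ctrl 4 (0.44) or Model 2 (0.40). With library size alone both calls ended, at log2 0.06 for Model and 0.34 for YHY. The log2 fold change of YHY against Model was 0.28 ± 0.16 (adjusted P 0.257). As nuclear CPM, all Model mice (51.6 or more) lay above all Ctrl mice (41.6 or less).

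With TMM scaling Polrmt was thus called higher and Tfam lower in db/db mice than in Ctrl mice. The ratio of the 2 within each library does not depend on scaling and gives only their change relative to each other. The counts of Polrmt were 0.694, 0.815, 0.490 and 0.766 times those of Tfam in Ctrl 1 to 4. The ratios were 1.02, 1.74, 1.61 and 1.39 in Model 1 to 4 and 1.92, 2.23, 2.46 and 2.2004 in YHY 1 to 4. No 2 groups overlapped: every Ctrl mouse had more Tfam than Polrmt counts, every db/db mouse had more Polrmt counts, and every YHY mouse lay above every Model mouse. The mean log2 ratio was -0.56 ± 0.33 for Ctrl, 0.50 ± 0.34 for Model and 1.13 ± 0.15 for YHY (SD, n = 4 each). The differences were 1.06 for Model against Ctrl, 0.63 for YHY against Model and 1.69 for YHY against Ctrl, or 2.08-fold, 1.55-fold and 3.23-fold. Each had an exact permutation P of 0.0286, the smallest possible, and 0.0571 after adjustment over 12 ratio tests, so none passed 0.05 after adjustment. The ratio of Tfb2m to Tfam, both of them lower against Ctrl, had a mean log2 of -0.42 ± 0.07 for Ctrl, -0.39 ± 0.31 for Model and -0.28 ± 0.28 for YHY. Its exact permutation P was 0.83 for Model against Ctrl, 0.6 for YHY against Model and 0.4 for YHY against Ctrl (n = 4 each).

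**Figure D3:**
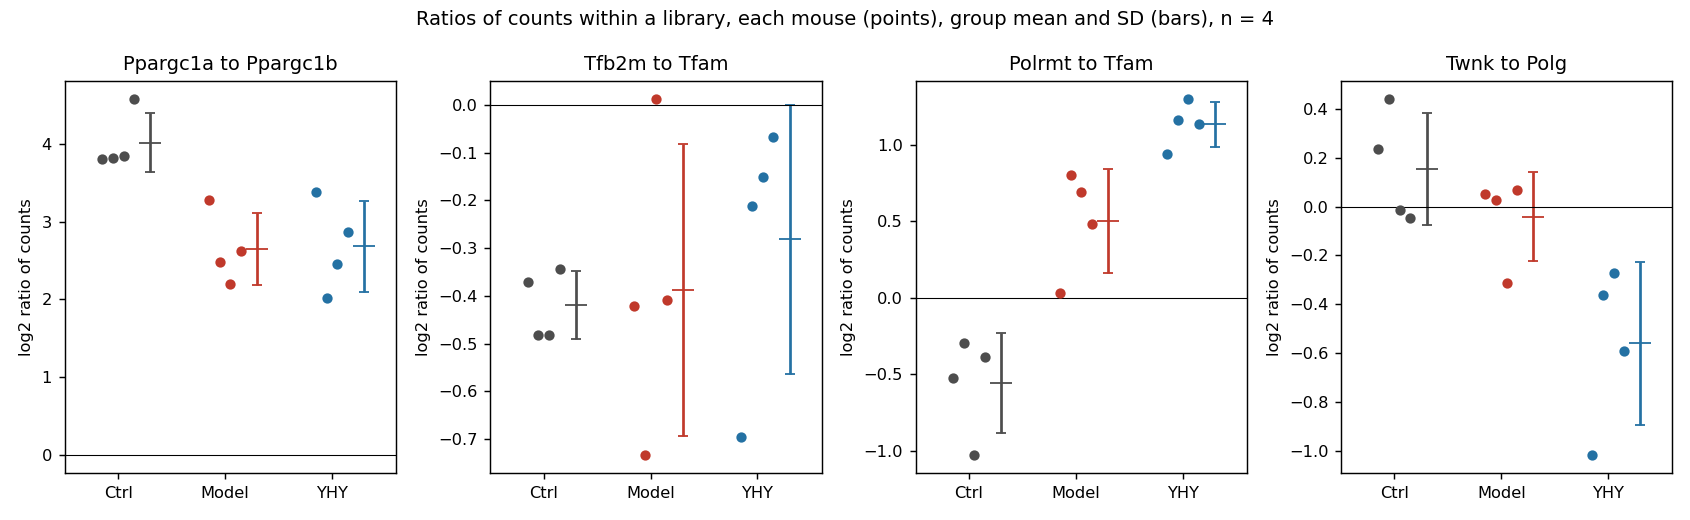
Log2 ratio of the counts of 2 members within each library (y axis) for each mouse (points), with the group mean and SD (bars, n = 4). The ratio of Polrmt to Tfam lies below 0 in the 4 Ctrl mice and above 0 in the 8 db/db mice, and the ratio of Ppargc1a to Ppargc1b lies highest in Ctrl.

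Twnk (ENSMUSG00000025209, chromosome 19, 44994102 to 45001201, plus strand) encodes the helicase that unwinds mtDNA. Its level was 16.8, 19.8, 14.0 and 16.8 CPM in Ctrl 1 to 4. It was 12.7, 19.1, 17.4 and 19.2 CPM in Model 1 to 4 and 10.1, 15.1, 15.8 and 17.7 CPM in YHY 1 to 4. The 3 groups overlapped, with YHY 1 and Model 1 lowest. The log2 fold change was 0.02 ± 0.19 for Model against Ctrl (edgeR adjusted P 0.946), -0.22 ± 0.19 for YHY against Model (adjusted P 0.491) and -0.20 ± 0.19 for YHY against Ctrl (adjusted P 0.405). The first lay so near 0 that its sign turned without Ctrl 1 (-0.03), Ctrl 3 (-0.11), Ctrl 4 (-0.04), Model 2 (-0.04) or Model 4 (-0.04). Leaving out single mice, the value ran from -0.34 to -0.07 for YHY against Model and from -0.34 to -0.06 for YHY against Ctrl. With library size alone YHY against Ctrl passed the test, at log2 -0.63. Twnk shares 780 bases with Mrpl43 on the opposite strand, and since the strand setting of the counting is not given in the sources used here, part of its counts may come from that gene.

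Polg (ENSMUSG00000039176, chromosome 7, 79095979 to 79116110, minus strand) encodes the catalytic subunit of the mtDNA polymerase. Its level was 14.3, 14.5, 14.1 and 17.3 CPM in Ctrl 1 to 4. It was 12.3, 18.7, 21.6 and 18.3 CPM in Model 1 to 4 and 20.4, 19.4, 19.1 and 26.7 CPM in YHY 1 to 4. All YHY mice lay above all Ctrl mice, with YHY 4 highest, and Model mice spanned both groups, with Model 1 lowest of all 12. Polg was 1.42-fold higher in YHY than in Ctrl (log2 0.51 ± 0.18, edgeR adjusted P 0.0255). This call ended without Ctrl 1 (log2 0.42), Ctrl 2 (0.48), Ctrl 3 (0.41) or YHY 4 (0.38). It also ended without a filter on low counts (0.47), with the 9 mice left without Ctrl 2, Model 1 and YHY 4 (0.33), with the trend on gene length removed (0.26) and with library size alone (0.07). The log2 fold change was 0.23 ± 0.18 for Model against Ctrl (adjusted P 0.323) and 0.28 ± 0.18 for YHY against Model (adjusted P 0.329). Leaving out single mice, these 2 values ran from 0.12 to 0.32 and from 0.13 to 0.38. Polg shares 4034 bases with Fanci on the opposite strand, a gene with 0 to 7 counts in each mouse, and without the strand setting reads of either may be counted for the other.

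The counts of Twnk were 1.18, 1.36, 0.991 and 0.969 times those of Polg in Ctrl 1 to 4. The ratios were 1.04, 1.02, 0.804 and 1.05 in Model 1 to 4 and 0.494, 0.778, 0.8286 and 0.664 in YHY 1 to 4. All YHY mice lay below all Ctrl mice, YHY 1 was lowest, and Model 3 lay among the YHY mice. The difference in mean log2 ratio was -0.72 for YHY against Ctrl (exact permutation P 0.0286, adjusted 0.0571), -0.52 for YHY against Model (exact P 0.0571, adjusted 0.098) and -0.20 for Model against Ctrl (exact P 0.286, adjusted 0.429). None passed 0.05 after adjustment.

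Lrpprc (ENSMUSG00000024120, chromosome 17, 85012675 to 85098217, minus strand) encodes the protein that binds and protects mitochondrial mRNAs. Its level was 65.9, 75.6, 66.0 and 73.5 CPM in Ctrl 1 to 4. It was 65.9, 57.9, 59.6 and 56.3 CPM in Model 1 to 4 and 34.6, 44.8, 42.3 and 69.9 CPM in YHY 1 to 4. Model 1 lay just below the lowest Ctrl mouse, and YHY 4 lay within the range of Ctrl while the other 3 YHY mice lay below all other mice. Lrpprc was 1.47-fold lower in YHY than in Ctrl (log2 -0.55 ± 0.18, edgeR adjusted P 0.017), and without YHY 1 this call ended (log2 -0.43). The log2 fold change was -0.23 ± 0.18 for Model against Ctrl (adjusted P 0.329), and it passed with library size alone (-0.65). Between YHY and Model it was -0.32 ± 0.18 (adjusted P 0.251). That comparison passed without YHY 4 (log2 -0.57) and with the 9 mice left without Ctrl 2, Model 1 and YHY 4 (-0.50). As nuclear CPM (MT genes left out of the total) Lrpprc had a mean of 106.9 ± 9.87 for Ctrl, 114.1 ± 2.50 for Model and 99.2 ± 23.5 for YHY (SD, n = 4 each), so on that scale the mean of Model was the higher. Ctrl 4 (121.2) lay above all Model mice there, and the other 3 Ctrl mice lay below them.

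Slirp (ENSMUSG00000021040, chromosome 12, 87490666 to 87498976, plus strand) encodes the RNA-binding partner of LRPPRC. Its raw counts were 1, 5, 2 and 0 in Ctrl 1 to 4, 0, 5, 1 and 1 in Model 1 to 4 and 0, 0, 0 and 3 in YHY 1 to 4, 18 in all 12 mice. These were too few for a test or a fold, and no difference was detectable with these counts. The gene region of Slirp overlaps others on the opposite strand, by 3132 bases with Snw1 and 122 bases with Alkbh1. How reads on 2 genes were counted is not given in the sources used here, so how well these counts measure Slirp RNA is uncertain.

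Divided by gene length, the levels of the members took an order that differed between groups. In Ctrl, Tfb2m was highest at 9.48 ± 0.508 CPM per kilobase (SD, n = 4), above Lrpprc at 8.26 ± 0.590 with no overlap of mice. Tfam (8.03), Ppargc1a (6.14), Polrmt (5.21) and Twnk (4.20) followed, each overlapping its neighbours in that run. Polg (1.40), Nrf1 (1.00) and Ppargc1b (0.625 CPM per kilobase) came next, with no overlap between neighbours. Slirp, with 18 counts in all, came last in every group without overlap, at 0.0184 for Ctrl, 0.0263 for Model and 0.00936 CPM per kilobase for YHY. In Model, Ppargc1a (7.74), Polrmt (7.33), Lrpprc (7.05), Tfb2m (6.65), Tfam (5.47) and Twnk (4.26 CPM per kilobase) formed a run in which neighbours overlapped. Ppargc1b (2.06) came next, overlapping Polg (1.65), which overlapped Nrf1 (1.06 CPM per kilobase). In YHY, Polrmt was highest at 8.88 ± 0.960, followed by Ppargc1a (7.28), Lrpprc (5.63), Tfb2m (5.63), Tfam (4.25) and Twnk (3.66 CPM per kilobase), again with overlap between neighbours. Polg (1.99), Ppargc1b (1.91) and Nrf1 (1.55 CPM per kilobase) overlapped each other in that order. Tfb2m thus held place 1 in Ctrl and place 4 in the db/db groups, and Polrmt went from place 5 in Ctrl to place 2 in Model and place 1 in YHY.

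The share of all counts on MT, against which the members were set, was 18.6, 22.7, 18.4 and 18.5% in Ctrl 1 to 4. It was 41.2, 58.9, 55.3 and 53.4% in Model 1 to 4 and 53.8, 64.6, 54.6 and 54.2% in YHY 1 to 4. The db/db mice lay far above the Ctrl mice, with Model 1 lowest and YHY 2 highest among them. Counting error was small, with a 95% Wilson interval of 53.3 to 53.4% in Model 4, the library with the fewest counts. The mean share was 19.5 ± 2.12% for Ctrl, 52.2 ± 7.68% for Model and 56.8 ± 5.21% for YHY (SD, n = 4 each). The exact permutation P was 0.0286 for each db/db group against Ctrl (adjusted 0.0429 over 3 comparisons) and 0.457 for YHY against Model. The share of MT counts was 2.91 times as high in YHY mice as in Ctrl mice. In that comparison Tfam, Tfb2m and Lrpprc were called lower, Ppargc1b, Nrf1, Polrmt and Polg higher, and Ppargc1a and Twnk were not called.

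**Figure D4:**
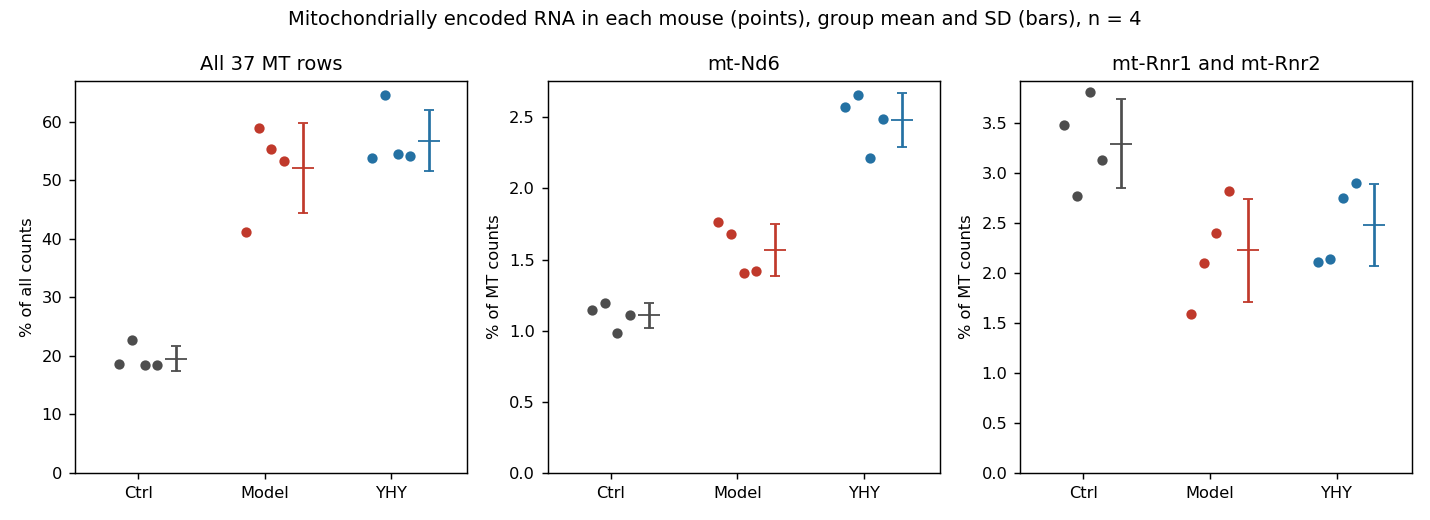
Share of all counts on MT, and shares of mt-Nd6 and of the 2 rRNAs among MT counts (y axes, percent), in each mouse (points) with the group mean and SD (bars, n = 4). Ctrl mice lie between 18.4 and 22.7% of all counts and db/db mice between 41.2 and 64.6%, and the share of mt-Nd6 among MT counts lies lowest in Ctrl and highest in YHY.

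The transcripts of mtDNA are made as long precursors from its heavy-strand and light-strand promoters, the step that TFAM, TFB2M and POLRMT carry out. The table had 12 mRNA genes of the heavy strand, mt-Nd6 on the light strand, 2 rRNA genes and 22 tRNA genes, of which 17 had 0 counts in every mouse. For Model against Ctrl edgeR called all 12 heavy-strand mRNAs higher, with a median log2 fold change of 1.88, beside 0.04 over all genes. The largest were mt-Nd5 (2.204 ± 0.32, adjusted P 0.000103) and mt-Co1 (2.14 ± 0.32, adjusted P 0.000127), and mt-Nd6 had a log2 fold change of 2.34 ± 0.29 (adjusted P 2.68e-05). Both rRNAs were higher, mt-Rnr1 by log2 1.46 and mt-Rnr2 by 1.27. For YHY against Ctrl 11 of the 12 heavy-strand mRNAs were called higher, with a median of 1.75, and mt-Atp8 (log2 1.01, adjusted P 0.0837) was not. There mt-Nd6 reached log2 3.16 ± 0.30 (adjusted P 9.76e-07) and mt-Nd5 2.91 ± 0.33 (adjusted P 4.71e-06). Between YHY and Model edgeR called 0 of 15 MT genes, with mt-Nd6 at log2 0.82 ± 0.28 (adjusted P 0.0606). DESeq2 called mt-Nd6 and 1 heavy-strand mRNA higher there, and the limits of the study (unadjusted P under 0.05 and a fold over 1.2) gave mt-Nd6 and 1 heavy-strand mRNA higher and 1 lower. Within edgeR mt-Nd6 was also called there with library size alone, with the trend on gene length removed, without Model 2 and without YHY 3, and 1 heavy-strand mRNA was called lower without Ctrl 4.

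Among MT counts alone, mt-Nd6 made up 1.14, 1.19, 0.986 and 1.11% in Ctrl 1 to 4. It made up 1.76, 1.68, 1.41 and 1.42% in Model 1 to 4 and 2.57, 2.65, 2.22 and 2.49% in YHY 1 to 4, with a 95% Wilson interval of 2.56 to 2.58% in YHY 1. The 3 groups did not overlap, in the order Ctrl, Model, YHY. The means were 1.11 ± 0.0876%, 1.57 ± 0.182% and 2.48 ± 0.189% (SD, n = 4 each). Each pair of groups had an exact permutation P of 0.0286 and 0.0857 after adjustment over 12 tests, so none passed. Reads of mt-Nd6 overlap mt-Nd5 on the other strand, so without the strand setting its counts may hold reads of mt-Nd5. The rRNA share of MT counts was 3.29 ± 0.449% for Ctrl, 2.23 ± 0.518% for Model and 2.48 ± 0.410% for YHY (exact permutation P 0.0571, adjusted 0.098, for each db/db group against Ctrl).

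Across the 8 db/db mice the level of each tested member, as log2 nuclear CPM, was set against the MT share, in 9 relations. Ctrl mice were left out because they form a separate cluster. Polrmt had a Pearson r of 0.74 (exact permutation P 0.0495, adjusted 0.42) and a Spearman rho of 0.57 (exact permutation P 0.151, adjusted 0.68) over 8 mice. Without Model 1 and YHY 2, the mice farthest from the median share, r was -0.02, so the relation rested on those mice. Ppargc1b had an r of 0.63 (exact permutation P 0.104, adjusted 0.42) and a rho of 0.67 (exact permutation P 0.0831, adjusted 0.68), and an r of 0.31 without those 2 mice. Tfam had an r of -0.44 (exact permutation P 0.327, adjusted 0.42) and a rho of -0.33 (exact permutation P 0.428, adjusted 0.751), and an r of 0.06 without them. Within groups, r had opposite signs in Model and YHY for Tfam (-0.48 and 0.50), Tfb2m (-0.54 and 0.39) and Polg (0.92 and -0.79). Its sign was the same in both groups for the other tested members. None of the 9 relations passed after adjustment, and with TMM-scaled CPM in place of nuclear CPM none did either.

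The other nuclear genes of these pathways, 85 genes in 4 lists of which 84 were tested, were called in both directions. For Model against Ctrl 15 of 84 were higher and 19 lower, beside 19.6% and 18.5% of all genes, with a median log2 fold change of -0.05 beside 0.04 over all genes. For YHY against Model 7 were higher and 6 lower, beside 5.63% and 7.62% of all genes (median 0.06 beside 0.02). For YHY against Ctrl 23 were higher and 21 lower, beside 26.1% and 24.2% of all genes (median -0.04 beside 0.10). The shares of these genes that were called were thus near the background. The counts of each list below are to be read against the same percentages, unless an alternative setting is named. Of 17431 genes, library size alone gave 1547 higher and 5667 lower for Model against Ctrl. It gave 491 and 686 for YHY against Model and 2365 and 5977 for YHY against Ctrl. With the length trend removed 714 were higher and 1222 lower for YHY against Model, and 4221 and 4458 for YHY against Ctrl. For the other alternatives no such counts by direction are given here. With library size alone most of the higher calls of Model against Ctrl were lost in each list, down to 0 of 27 upstream genes, 1 of 18 replication genes, 0 of 7 transcription genes and 1 of 32 RNA genes. The lower calls became 13 upstream genes, 7 replication genes, 3 transcription genes and 17 RNA genes. Among named genes it also ended the calls of Ssbp1 (log2 0.27), Mterf1a (0.67) and Mrm1 (0.29) for Model against Ctrl. The calls of Prkaa2 (-0.72), Mef2c (-0.71), Dna2 (1.08) and Mtpap (0.63) for YHY against Model ended as well, as did those of Myc (0.90), Esrrb (0.76), Dna2 (0.65), Fastk (0.37) and Mterf3 (0.13) for YHY against Ctrl. The directions given for lists therefore hold relative to the TMM scaling.

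**Figure D5:**
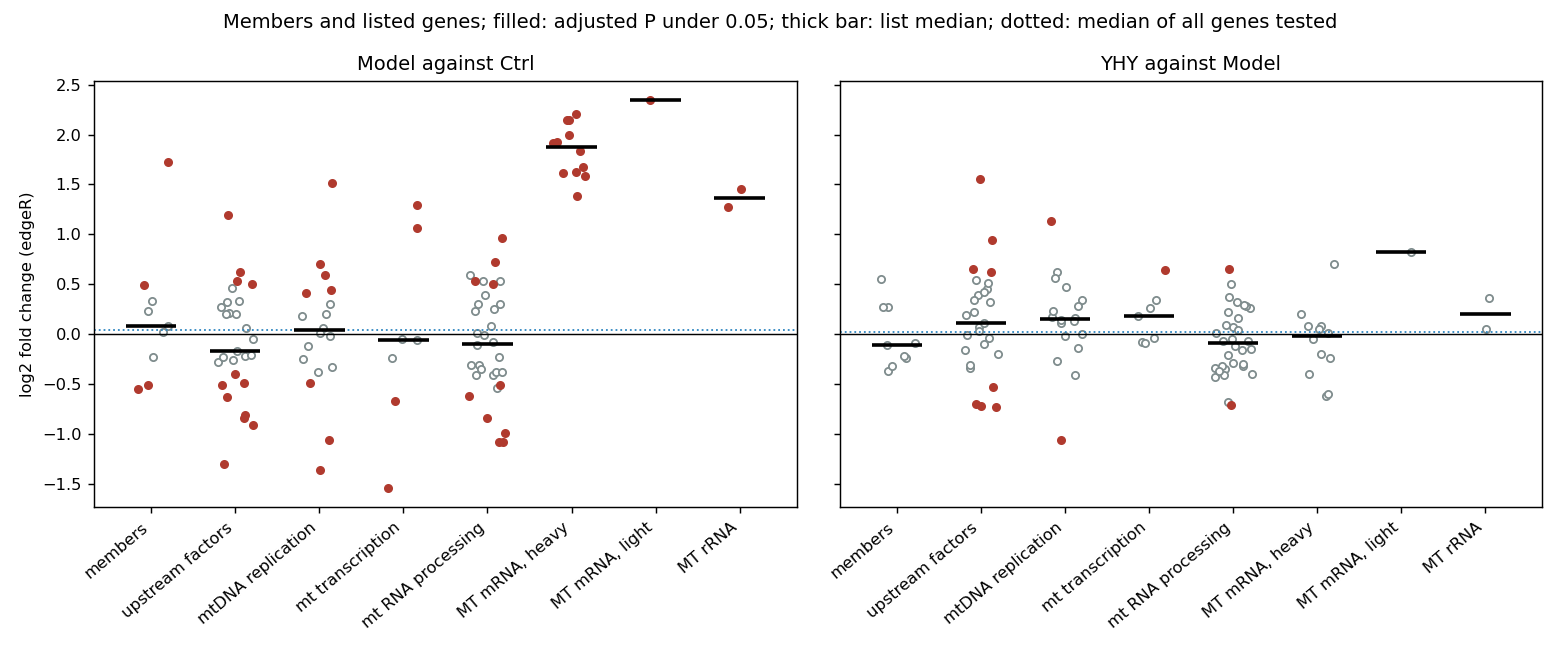
Fitted log2 fold change (y axis, edgeR) of the members and of each gene of the pathway lists (points, filled where the adjusted P was under 0.05), with list medians (thick bars) and the median of all genes (dotted), for Model against Ctrl and YHY against Model. The nuclear lists spread to both sides of 0, and the MT genes lie above 0 for Model against Ctrl, with a median of 1.88 for heavy-strand mRNA.

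Upstream of mitochondrial biogenesis, the list held 27 coactivators, corepressors, nuclear receptors and kinases. For Model against Ctrl 4 were called higher and 8 lower. Esrrb, an oestrogen-related receptor that works with PGC-1 coactivators, rose (log2 1.19 ± 0.30, edgeR adjusted P 0.00585), and so did Tfeb, a regulator of lysosome genes (0.62 ± 0.13, adjusted P 0.00126). Ppard, a nuclear receptor for fatty acids, fell (-1.30 ± 0.31, adjusted P 0.00344), and so did Prkaa2, a catalytic subunit of the energy sensor AMPK (-0.91 ± 0.17, adjusted P 0.00057). Esrrb and Tfeb lost their calls with library size alone (0.72 and 0.19), and without Ctrl 3 the count of higher genes was 2. For YHY against Model 4 were higher and 4 lower. Myc, which encodes a transcription factor of cell growth, rose (1.55 ± 0.35, adjusted P 0.00951), as did the deacetylase gene Sirt1 (0.95 ± 0.23, adjusted P 0.0146), whose difference was 0.59 without YHY 4. Prkaa2 fell again (-0.73 ± 0.17, adjusted P 0.0114), as did Mef2c (-0.72 ± 0.19, adjusted P 0.0195). The call of Mef2c ended without Model 2 (-0.65), with only the 2 groups fitted (-0.67) and with the 9 mice (-0.63). The count of 4 lower became 0 with library size alone, 1 with only the 2 groups fitted and 2 with the 9 mice, and the count of 4 higher became 2 with the trend on gene length removed and 8 with the limits of the study. For YHY against Ctrl 8 were higher and 5 lower, among them Myc (1.33), Esrrb (1.16), Prkaa2 (-1.64) and Ppard (-1.11, and -0.70 without Ctrl 1). These counts were 0 higher and 11 lower with library size alone, and with the trend on gene length removed 9 were lower.

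Of the 18 tested genes that replicate or maintain mtDNA besides the members, 5 were higher and 3 lower for Model against Ctrl. Primpol, the mitochondrial and nuclear primase-polymerase, rose (log2 1.52 ± 0.29, edgeR adjusted P 0.000878), and Ssbp1, which coats single-stranded mtDNA, rose as well (0.71 ± 0.16, adjusted P 0.00216). Endog, a mitochondrial endonuclease, fell (-1.36 ± 0.24, adjusted P 0.000443), as did Rrm2b, a ribonucleotide reductase subunit (-1.06 ± 0.22, adjusted P 0.00159). The count of 5 higher became 2 without Ctrl 1, 3 without Ctrl 3, 3 without Ctrl 4, 3 without Model 2 and 2 without a filter on low counts. For YHY against Model 1 was higher, the helicase and nuclease gene Dna2 (1.13 ± 0.36, adjusted P 0.046), and 1 lower, Mpv17, whose loss depletes mtDNA (-1.07 ± 0.13, adjusted P 0.000322). Mpv17 had 47.5 ± 2.22 CPM for Ctrl, 43.7 ± 5.33 for Model and 20.9 ± 1.52 for YHY (SD, n = 4 each). The call of Dna2 ended without Ctrl 1 (1.11), Ctrl 2 (1.13), Ctrl 3 (1.11), Ctrl 4 (1.11), Model 1 (1.01), Model 2 (1.01), Model 4 (1.15), YHY 2 (1.08) or YHY 4 (0.66). For that comparison the count of higher genes was also 0 with library size alone, only the 2 groups, the 9 mice or the length trend removed, 2 with DESeq2 and 4 with the limits of the study. The count of lower genes was 2 with those limits and 2 without YHY 2. For YHY against Ctrl 7 were higher and 5 lower, among them Primpol (1.69), Endog (-1.51), Mpv17 (-1.19) and Dna2 (1.14). That call of Dna2 ended without YHY 4 (0.67) and with the 9 mice (0.57). The count of higher genes was 3 with library size alone.

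Of the 7 further genes of mitochondrial transcription, 2 were higher and 2 lower for Model against Ctrl. Tefm, the elongation factor of POLRMT, fell from 14.98 ± 1.33 CPM in Ctrl to 5.13 ± 1.85 in Model and 6.53 ± 1.29 in YHY (SD, n = 4 each). Its log2 fold change was -1.54 ± 0.24 in Model (edgeR adjusted P 0.00017) and -1.20 ± 0.24 in YHY (adjusted P 0.000621) against Ctrl. Mterf4, which acts with an rRNA methyltransferase, was lower in Model (-0.67 ± 0.18, adjusted P 0.00752) and in YHY (-0.49 ± 0.18, adjusted P 0.0303). Its call in YHY ended without Ctrl 1 (-0.48), YHY 1 (-0.41), YHY 2 (-0.47) or YHY 3 (-0.47), with upper-quartile scaling (-0.37) and without a filter on low counts (-0.53). The termination factor gene Mterf1a was higher in Model (1.06 ± 0.26, adjusted P 0.00488) and in YHY (1.32 ± 0.26, adjusted P 0.000613). Mterf3 was the 1 gene called for YHY against Model (0.64 ± 0.18, adjusted P 0.0259), and this call ended without Model 1 (0.61), Model 3 (0.66), Model 4 (0.60) or YHY 2 (0.49) and with the 9 mice (0.61). For YHY against Ctrl 3 of the 7 were higher and 2 lower, Mterf3 among the higher (0.59), and with library size alone 1 was higher. The count of 2 higher in Model became 1 without Ctrl 1.

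Of the 32 genes that process, modify or degrade mitochondrial RNA, 4 were higher and 6 lower for Model against Ctrl. Fastk rose (log2 0.97 ± 0.17, edgeR adjusted P 0.000353), as did the rRNA methyltransferase gene Mrm1 (0.72 ± 0.20, adjusted P 0.0093), and without Ctrl 1 or Ctrl 3 the count of higher genes was 2. That count was 7 with upper-quartile scaling, 8 with only the 2 groups fitted and 7 with the limits of the study. Rexo2, which degrades short RNA fragments, fell (-1.08 ± 0.16, adjusted P 9.69e-05), as did Fastkd5, which matures mRNAs that lack tRNA borders (-1.08 ± 0.30, adjusted P 0.0093). For YHY against Model 1 was higher, the poly(A) polymerase gene Mtpap (0.66 ± 0.19, adjusted P 0.0353), and 1 lower, the pseudouridine synthase gene Trub2 (-0.72 ± 0.16, adjusted P 0.0097). The call of Mtpap ended without Ctrl 3 (0.64), Model 1 (0.63), Model 2 (0.68), Model 3 (0.69), Model 4 (0.62), YHY 1 (0.64) or YHY 2 (0.44). None was higher (0) with library size alone, only the 2 groups, the 9 mice or the length trend removed. The count of lower genes was 3 without YHY 4 and 3 with the 9 mice, and the limits of the study gave 3 higher and 6 lower. For YHY against Ctrl 5 were higher and 9 lower, among them Fastkd1 (0.89), Fastk (0.81), Rexo2 (-1.42) and Grsf1, which binds RNA in mitochondrial RNA granules (-1.19). These counts were 1 higher and 17 lower with library size alone.

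The genes whose log2 CPM followed a member most closely over the 12 mice, among 12854 genes with enough counts, are given as a description, since the 3 groups form clusters. Nearest to Ppargc1a were Prom1 (likeness 0.88 on the Pearson scale), Nrip1 (0.87) and Zcchc3 (0.85). Nearest to Tfam were Golm2 (0.98), Fam210a (0.98) and Msrb1 (0.97). Nearest to Lrpprc were Amt (0.97), Slc36a1 (0.95) and Vil1 (0.95).

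Markers of kidney cells were present in all libraries, and some moved with the groups. All 8 proximal tubule markers were detected, with Slc34a1 most abundant, and their summed level was 4715, 5965, 4930.3 and 3605 CPM in Ctrl 1 to 4. It was 3379.5, 3287, 3568 and 2694 CPM in Model 1 to 4 and 1362, 3118, 1909 and 3901 CPM in YHY 1 to 4. For Model against Ctrl 0 of the 8 were called higher and 4 lower (Lrp2, Cubn, Slc7a13 and Slc22a30). Slc34a1 had a mean of 2041 CPM in Ctrl and 2126 in Model (log2 0.06). Slc5a2 (log2 0.42), Slc5a12 (0.79) and Slc22a6 (-0.73) were not called either. For YHY against Ctrl 1 was called higher (Slc5a12) and 5 lower. YHY 1 was lowest of all 12 mice in the proximal tubule sum, as it was for Lrpprc, Tfb2m and Twnk. YHY 4 was highest among the YHY mice, as it was for Lrpprc, Tfb2m, Twnk and Polg. Other members differed from this. Nrf1 was highest of all 12 mice in YHY 1 (19.0 CPM) and lowest among the YHY mice in YHY 4 (13.1 CPM). Tfam was lowest in YHY 3, Polg in Model 1, and Ppargc1a, Ppargc1b and Polrmt in a Ctrl mouse. The 4 thick ascending limb markers summed to 2496 ± 589.8 CPM for Ctrl, 1278 ± 189.7 for Model and 1836 ± 583 for YHY (SD, n = 4 each). Of the 4, Umod (921 CPM in Ctrl, 126 in Model), Egf (783 and 389) and Cldn16 were called lower in both db/db groups against Ctrl, while Slc12a1, the most abundant over all mice, had a log2 fold change of -0.05 in Model and 0.39 in YHY. The 3 distal convoluted tubule markers (Slc12a3) summed to 224 ± 64.8, 470.2 ± 30.1 and 406 ± 111 CPM, and the 6 collecting duct markers (Aqp2) to 893 ± 391.9, 486 ± 95.7 and 384 ± 169.5 CPM. Between Model and Ctrl 2 of the 6, Aqp2 (650 to 286 CPM) and Aqp3 (77.1 to 23.4), were called lower and 0 higher, with a median log2 fold change of -0.18. Against Ctrl the YHY mice had 3 of them lower, with a median of -0.67. The part of these shifts in the values of the members was not tested.

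RNAs that stay in the nucleus also moved with the groups. All 5 genes of that list were detected, with Neat1 most abundant, and they summed to 399.7, 433, 338 and 319.8 CPM in Ctrl 1 to 4. The sums were 601, 1163, 842 and 752 CPM in Model 1 to 4 and 1405, 1385, 1176 and 1621 CPM in YHY 1 to 4. The 3 groups did not overlap, in the same order as the ratio of Polrmt to Tfam and the share of mt-Nd6. Of the 5 genes, 5 were called higher for Model against Ctrl, 2 for YHY against Model and 5 for YHY against Ctrl, and 0 lower. Their part in the results was not tested.

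Other cells were marked as follows, as mean summed CPM in Ctrl, Model and YHY. The 5 podocyte markers (Podxl most abundant) gave 129, 154 and 107, the 5 endothelial markers (Emcn) 179, 205 and 204, and the 6 mesangial and stromal markers (Acta2) 160.1, 195 and 213. The 7 leukocyte markers (Lyz2) gave 102, 165 and 239, with YHY 2 highest at 411, and the 5 red blood cell markers (Hba-a1) gave 456, 368 and 667. Of the mesangial and stromal markers 3 were called higher and 0 lower in both comparisons with Ctrl, and of the endothelial markers 1 and 0. Of the leukocyte markers 1 was called higher in Model and 3 in YHY against Ctrl, with 0 lower and a median of 0.83 in YHY. The red blood cell and podocyte sums hold genes that went opposite ways. For Model against Ctrl the red blood cell gene Hba-a2 was called higher (log2 0.70) and Hbb-bs (-1.46), Hbb-bt (-1.17) and Alas2 (-1.87) lower, with a median of -1.17 over the 5. Between YHY and Ctrl 2 of them were called higher and 0 lower, with a median of -0.07. There 3 podocyte markers were called higher and 1, Podxl, lower, with a median of 0.62, and 2 distal convoluted tubule markers higher and 1, Pvalb, lower. Against Ctrl the Model mice had 2 podocyte markers higher and 0 lower. Markers of tissue beside the kidney were near 0, with mean sums of at most 1.40 CPM over 5 white adipocyte genes, 0.425 over 3 brown adipocyte genes and 0.469 over 4 skeletal muscle genes. The 5 adrenal cortex genes (Star most abundant) gave 1.95, 4.47 and 3.86 CPM, and Cyp11b2 of that list had 0 counts in every mouse. Star alone of them had enough counts to be tested. It was called higher against Ctrl in Model (log2 1.32) and in YHY (log2 1.10).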

How the data were processed

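PolyA RNA of 12 kidneys was measured, 4 mice in each of Ctrl, Model and YHY. The deposited table holds raw counts per gene and mouse. Per the labels, the authors trimmed reads with Trimmomatic 0.39, aligned them with HISAT2 2.2.1 to GRCm39 and counted them with featureCounts 2.0.1. The authors also list FastQC 0.11.9, SAMtools 1.12, DESeq2 1.34.0 and R 4.1.2. The authors' comparison tables (group means, log2 fold changes, p-values and 12 columns of values per mouse, not all of them named for a mouse of the groups compared) and KEGG tables (pathway counts and p-values) were not used here. The test across genes was that of edgeR 4.0.16 under R 4.3.3: TMM scaling, filterByExpr, quasi-likelihood test, 3 groups in 1 fit, two-sided, P adjusted by Benjamini-Hochberg over 17431 genes, threshold 0.05. CPM values are TMM-scaled, and displayed log2 values used a prior count of 2. Shares and ratios (0.5 added to each count) were compared by exact two-sided permutation tests in Python 3.11.15 with scipy 1.17.1, and relations by exact pairing permutations. Wilson intervals are at 95% and cover counting error only. Replicate libraries were compared only to find a library deposited more than once, and no pair was alike within sampling noise (chi-square per degree of freedom at least 13.9).

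The members and lists were chosen with earlier results of these data known. Named genes were all members, the MT mRNA and rRNA genes and, from each pathway list and comparison, the 2 called genes that rose most and the 2 that fell most, given a mean count of at least 50. For Ppargc1a, Tfam and Lrpprc the 3 most alike genes were named. Marker lists covered tubule segments, podocytes, endothelium, stroma, blood cells, fat, adrenal cortex, muscle and nuclear RNA. Of 5 planned ratios 4 were computed and of 11 planned relations 9, since Slirp had at most 5 counts per mouse. Alternatives were DESeq2 1.42.0, upper-quartile scaling, library size alone, removal of MT genes, no filter or at least 10 counts, only the 2 groups compared, a block of replicate numbers, leaving out single mice, 9 mice (without Ctrl 2, Model 1 and YHY 4, which the authors' means are taken to leave out), a gene length trend, the study's limits (fold over 1.2, unadjusted P under 0.05), 5 added to each count in ratios, MT mRNA alone and TMM-scaled CPM in relations. Those for named list genes and list counts were chosen after seeing the data.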

Additional observations from a re-analysis of the deposited data

Results flagged for a closer look

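In 5 of 54 groups of 4 mice checked, 1 mouse lay far from the other 3, with a gap that took up most of the range of the group (Dixon's test at 95%). Chance alone gives this in about 1 in 20 groups (5%). Polg was at 17.3 CPM in Ctrl 4, beside 14.1 to 14.5 CPM in the other Ctrl mice. The share of counts on MT was 22.7% in Ctrl 2, beside 18.4 to 18.6%, and 64.6% in YHY 2, beside 53.8 to 54.6%. The log2 ratio of Ppargc1a to Ppargc1b was 4.58 in Ctrl 4, beside 3.80 to 3.85. The log2 ratio of Twnk to Polg was -0.31 in Model 3, beside 0.03 to 0.07.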

How the results depend on the processing

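Of 594 values of members under the alternatives, 548 kept direction and side of the threshold, 20 lost and 10 gained a call, and 16 changed sign. Of the 242 that concern called differences, 222 kept the call, 20 lost it and 0 changed sign. Of 1090 values of named list genes 1037 kept theirs and 53 lost it, and 862 of 948 list counts stayed within 1.5 times. The cause of the changes that follow was not tested, unless fewer mice or genes were used.

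With library size alone, log2 was -0.092 (Ppargc1a), -0.35 (Nrf1), -0.42 (Twnk) and -0.23 (Polg) for Model against Ctrl and -0.16 (Ppargc1a) for YHY against Ctrl. On that scaling 1 of 9 members was higher in each, beside 1547 and 2365 of all 17431 genes. For YHY against Model 1177 genes were called with it. Twnk for Model against Ctrl was -0.0090 without a filter, -0.0010 with only the 2 groups and -0.00091 with replicate number as a block. With that block mt-Nd6 was called for YHY against Model, as were 2 RNA-processing genes and 0 replication genes on the higher side. Replicate numbers do not pair the mice, since correlations within a number ran from -0.17 to 0.12. For YHY against Model, 1 member was higher with DESeq2, upper-quartile scaling, MT genes removed, at least 10 counts, or the study's limits. With 9 mice or the study's limits 1 was lower. Counts of all genes by direction are not given for these settings, so these member counts have no background beside them. In both directions together, genes called there were 1385 with only the 2 groups and 4988 with the study's limits. Upper-quartile scaling left 1 member lower for Model against Ctrl, also without a background count. The length trend left 2 members higher for YHY against Ctrl, beside 4221 of all genes.

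Leaving out each mouse gave log2 ranges of -0.11 to 0.10 (Twnk) and -0.020 to 0.18 (Nrf1) for Model against Ctrl, and -0.18 to 0.026 (Ppargc1a) and -0.26 to 0.063 (Ppargc1b) for YHY against Model. Members higher and lower were 1 to 2 each for Model against Ctrl, where 5292 to 7093 genes were called in both directions together. They were 0 to 1 each for YHY against Model, where 1146 (without Model 3) to 2723 genes were called. The Ppargc1a to Ppargc1b ratio ran from -0.20 to 0.25 for YHY against Model, and Tfb2m to Tfam from -0.10 to 0.15 (Model against Ctrl) and -0.0086 to 0.24 (YHY against Model). Slirp, with 18 counts in all, had too few for a test.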
